A study of Homo sapiens with 10 samples.

Results

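The integrated stress response was followed here through 10 genes: the transcription factor ATF4 and 9 genes that it, or a factor it induces, is known to switch on (ATF3, DDIT3, TRIB3, CHAC1, SESN2, STC2, CEBPB, PPP1R15A and GTPBP2). The genes were taken by name from 24994 genes in the deposited tables, and each was represented by 1 transcript. The cells were HEK293, a line derived from human embryonic kidney, and polyadenylated RNA was sequenced in 10 libraries. Cells either received 1 mM 4-thiouridine (4SU), a uridine analogue that cells build into new RNA, for 12 to 14 h, or no analogue. They were then irradiated with ultraviolet light or not, as is done to crosslink proteins to RNA before immunoprecipitation. There were 2 libraries, A and B, of each of 4 groups: untreated cells (no 4SU, no crosslinking), 4SU without crosslinking, crosslinking at 254 nm without 4SU, and 4SU with crosslinking at 365 nm. A further pair of libraries, 1 per siRNA and without 4SU or crosslinking, was made after transfection of an siRNA to GFP, the usual control, or to HuR, an RNA-binding protein that binds AU-rich sequences and is encoded by ELAVL1. The series design gives no group with 4SU at 254 nm or with 365 nm light alone, and the labels do not say that libraries A and B came from separate cultures, so the spread behind each p-value may be technical.

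Separate kinases known to sense unfolded protein in the endoplasmic reticulum, amino acid shortage, double-stranded RNA or haem shortage phosphorylate the initiation factor eIF2, which lowers most translation while the ATF4 message is translated more. ATF4 then binds composite C/EBP-ATF response elements in its targets, often together with a C/EBP partner. Some targets extend the response (ATF3, DDIT3, CEBPB), some feed back on it (TRIB3, PPP1R15A), and others alter redox state, growth signalling or secretion (CHAC1, SESN2, STC2). The ATF4 message itself can also rise by transcription, so its level is not a measure of its protein.

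Each of the 8 replicated libraries held between 2238569 and 3099769 tags, so that 3 tags, the limit a count of 0 allows, corresponded to 0.968 to 1.34 tags per 1000000 of the library total. The GFP and HuR siRNA libraries held 8688262 and 9016803 tags. All 10 genes were detected in all 10 libraries and passed the filter on low counts. The lowest count was 7 tags, for GTPBP2 in 4SU with 365 nm library A. Crosslinked libraries held shorter transcripts: the tag-weighted median length was 1147 to 1534 nt in them and 2373 to 3029 nt in the 4 replicated libraries without crosslinking. Their scaling factors from the trimmed mean of M-values (TMM), which assumes that most genes do not change, were 0.371 to 0.983 against 1.54 to 1.74. The part of RNA length in any difference that crosses crosslinking cannot be told apart from the treatment, and such differences are given below both as fitted and with a per-library trend on transcript length removed. Of the HEK293 markers examined, the neurofilament gene NEFL (138 to 1222 CPM, tags per 1000000 after TMM scaling), the keratin gene KRT18 (18.5 to 134 CPM) and EPCAM (121 to 907 CPM) were present in every library. The leukocyte gene PTPRC and the fibroblast genes COL1A2 and DCN gave at most 3 tags in a library, no more than the limit a count of 0 allows, so low levels of them could not be detected. KRT8, PAX2 and LHX1 did not exceed 3.58 CPM, and another neurofilament gene, NEFM, lay between 0.996 and 7.69 CPM. VIM did not exceed 16.8 CPM (0 in untreated library B), while a further fibroblast collagen gene, COL1A1, lay between 11.1 and 63.6 CPM. The HEK293 marker IRS4 lay between 14.6 and 423 CPM and was lowest in 4SU with 365 nm (14.6 and 16.1 CPM).

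Levels differed widely among the 10 genes. On the scale of CPM per kb of transcript, which allows genes to be compared, untreated cells held ATF4 at 115 ± 18.6 (SD, n = 2), ATF3 at 31.7 ± 5.82 and SESN2 at 19.7 ± 3.94. GTPBP2, DDIT3 and PPP1R15A followed with means of 18.4, 17.0 and 11.9 CPM per kb. The lowest were STC2, CHAC1, TRIB3 and CEBPB, with means between 4.99 and 8.89 CPM per kb that lay within their spread of each other. In 4SU cells ATF4 stayed first at 263 ± 25.7 CPM per kb, and SESN2 (62.3 ± 13.5), DDIT3 (45.6 ± 20.2), STC2 (44.8 ± 8.57) and ATF3 (43.4 ± 22.8) came next, with standard deviations that overlapped.

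**Figure D1:**
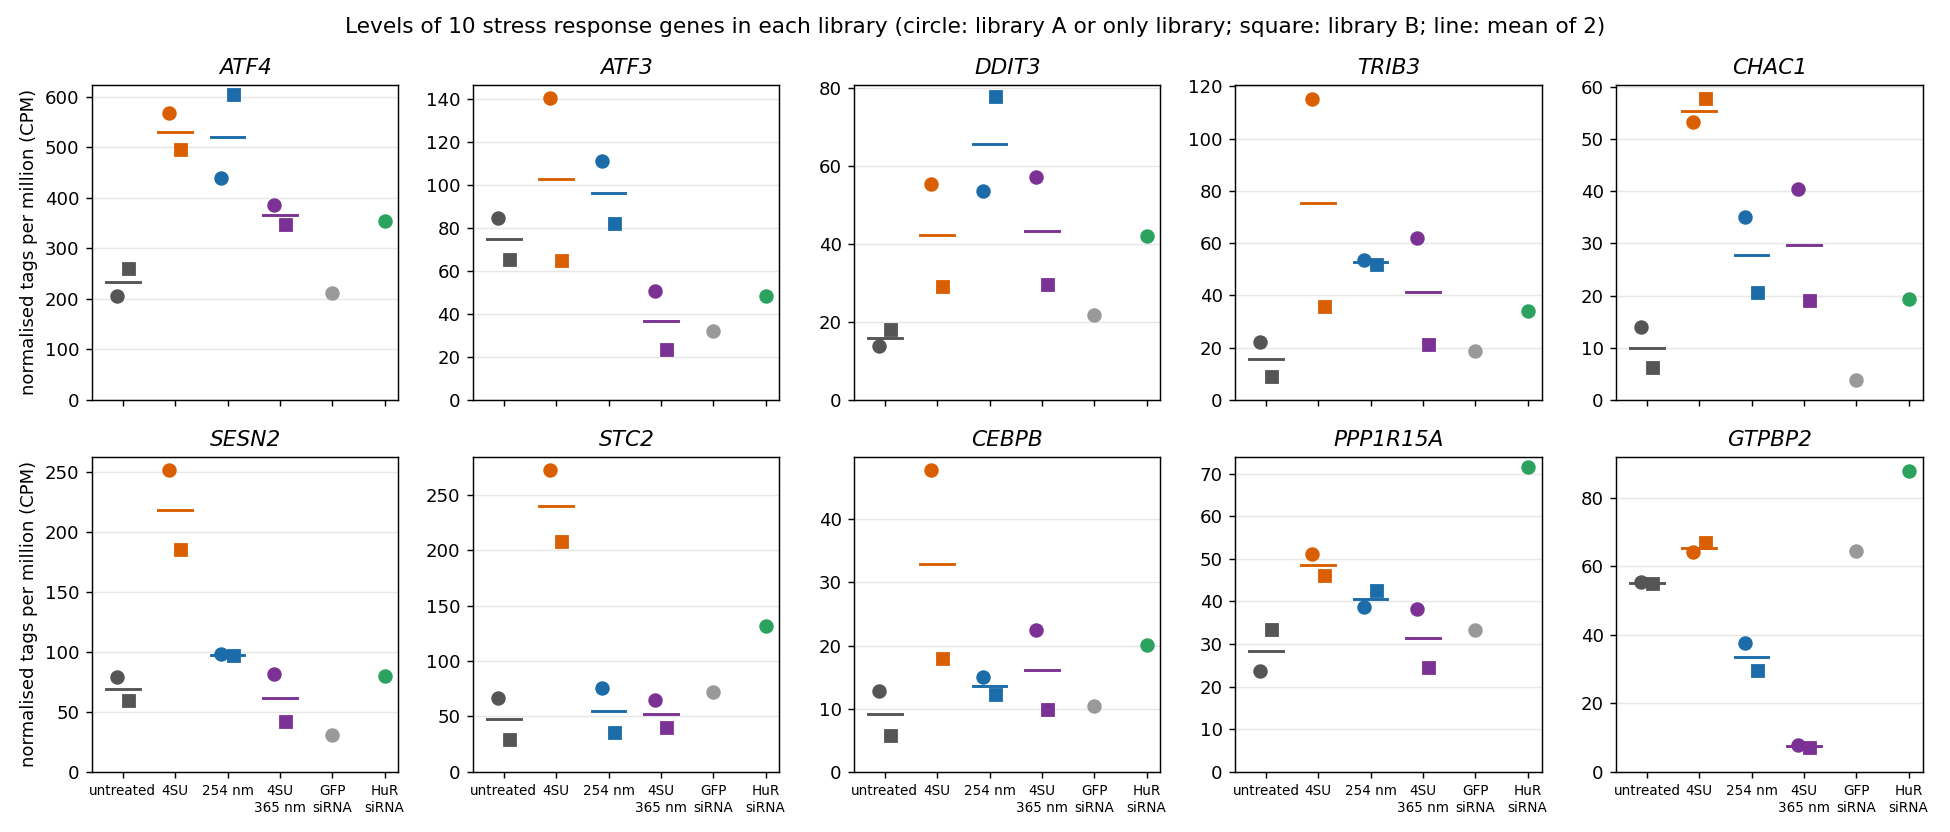
Normalised tags per 1000000 (CPM; y axis, linear, from 0, a separate scale for each gene) of the 10 stress response genes in each library of the 6 groups; circles are library A or the only library, squares library B, and lines the mean of 2. CHAC1 lay at 53.2 and 57.7 CPM in the 4SU libraries against 13.9 and 6.12 CPM in untreated cells, whereas GTPBP2 lay at 64.3 and 66.7 against 55.6 and 54.8 CPM and at 7.86 and 6.99 CPM in 4SU with 365 nm.

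Treatment with 4SU alone raised 7 of the 10 genes and lowered none (none also at an unadjusted p under 0.05 in edgeR, and none by DESeq2). DESeq2 called 5 of the 7, without TRIB3 (adjusted p = 0.133) and DDIT3 (0.0502). The 7 were CHAC1, STC2, TRIB3, CEBPB, SESN2, DDIT3 and ATF4 itself, with increases from 2.28-fold to 5.42-fold. The remaining 3, PPP1R15A, ATF3 and GTPBP2, did not pass the test. Among all 13731 genes tested, 3.85% were called higher and 3.69% lower at a Benjamini-Hochberg adjusted p under 0.05 in edgeR's quasi-likelihood test, and 432 genes were higher and 236 lower when scaled to library totals. The median log2 fold change was 1.53 over the 10 genes and 0.02 over all genes.

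CHAC1, STC2 and TRIB3 had the highest fold changes, within their standard errors of each other. CHAC1, which encodes an enzyme that degrades glutathione, stood at 13.9 and 6.12 CPM in untreated libraries A and B and at 53.2 and 57.7 CPM in the 4SU libraries. The groups were far apart and the 4SU libraries close together, and the difference was 5.42-fold (log2 2.44 ± 0.40 SE, adjusted p = 6.98e-05). STC2, which encodes the secreted glycoprotein stanniocalcin 2, stood at 66.5 and 28.8 CPM in untreated and 272 and 207.5 CPM in 4SU libraries. Its rise was 5.01-fold (log2 2.32 ± 0.38, adjusted p = 6.98e-05), with every 4SU library above every untreated one. SESN2, which encodes a leucine sensor that restrains mTORC1, stood at 78.9 and 59.4 CPM in untreated and 252 and 185 CPM in 4SU libraries. That was a 3.15-fold rise (log2 1.66 ± 0.34, adjusted p = 0.00157), again without overlap.

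Among the transcription factors, ATF4 stood at 207 and 259.8 CPM in untreated and 568 and 494 CPM in 4SU libraries, a 2.28-fold rise (log2 1.19 ± 0.37, adjusted p = 0.0363). ATF4 tags were fractional in 5 libraries, which shows that some were shared with another transcript. DDIT3, which encodes the pro-apoptotic factor CHOP, stood at 13.7 and 17.8 CPM in untreated and 55.5 and 29.02 CPM in 4SU libraries (2.67-fold, log2 1.41 ± 0.37, adjusted p = 0.0132). Library A of the 4SU group was the high one for DDIT3, and both lay above the untreated pair. CEBPB, which encodes a C/EBP factor that can pair with ATF4, stood at 12.8 and 5.59 CPM in untreated and 47.8 and 17.9 CPM in 4SU libraries (3.48-fold, log2 1.80 ± 0.44, adjusted p = 0.00687). ATF3, a factor of the same bZIP class, stood at 84.7 and 65.2 CPM in untreated and 140.5 and 64.4 CPM in 4SU libraries, so its groups overlapped (log2 0.45 ± 0.35, adjusted p = 0.494).

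Of the feedback genes, TRIB3 was called and PPP1R15A was not, and the difference between them was not tested. TRIB3, a pseudokinase that restrains ATF4 activity, stood at 22.3 and 8.78 CPM in untreated and 115 and 35.4 CPM in 4SU libraries (4.74-fold, log2 2.24 ± 0.44, adjusted p = 0.000714). The 4SU libraries of TRIB3 were further apart than those of CHAC1, STC2 or SESN2, and both exceeded the untreated pair. PPP1R15A, which directs a phosphatase to eIF2, stood at 23.7 and 33.3 CPM in untreated and 51.2 and 46.0 CPM in 4SU libraries (log2 0.77, 95% interval 0.10 to 1.45, adjusted p = 0.159). GTPBP2, a GTP-binding protein linked to the rescue of stalled ribosomes, stood at 55.6 and 54.8 CPM in untreated and 64.3 and 66.7 CPM in 4SU libraries (log2 0.25, 95% interval −0.39 to 0.89, adjusted p = 0.703). Both 4SU libraries lay above both untreated ones for 9 of the 10 genes, ATF3 being the exception, and the same held for 24.7% of all genes tested.

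The values rested in part on 4SU library A. Without it, the log2 fold changes of CHAC1, STC2 and SESN2 became 2.48, 2.10 and 1.40, and these genes stayed called. Those of ATF4, DDIT3, TRIB3 and CEBPB became 1.07, 0.87, 1.15 and 0.93, and these genes lost the call. That fit, with 1 library left in the 4SU group, also called fewer of all genes in both directions. ATF4 also missed the threshold without either 4SU with 365 nm library, without 4SU library B or without either untreated library. Its values there ran from 1.019 to 1.345. CEBPB missed it without untreated library B (1.32). With the length trend removed, all 7 calls stood, beside 4.49% of all genes higher and 5.56% lower.

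The 250 bases before and 50 after each RefSeq start of the 10 genes (build GRCh38.p14) were searched on both strands for motifs known in this response, since 7 of the 10 genes were called higher in 4SU cells. The core of the C/EBP-ATF response element, TGATGNAA, was found in CHAC1 and ATF3, and the cyclic AMP response element TGACGTCA in PPP1R15A. The 3 stretches are shown 5′ to 3′ on the genes' own strand with the motif in capitals; that of CHAC1 reads on the opposite strand.
CHAC1, chr15:40953242-40953289: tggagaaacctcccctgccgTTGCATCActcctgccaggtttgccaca
ATF3, chr1:212565196-212565243: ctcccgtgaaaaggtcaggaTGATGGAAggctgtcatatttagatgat
PPP1R15A, chr19:48872343-48872390: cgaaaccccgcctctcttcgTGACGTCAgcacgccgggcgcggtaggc
The motif lies at −209 from the start in CHAC1, −191 in the first of 2 ATF3 windows and −58 in PPP1R15A. The first core was present in 3.62% of all 35116 RefSeq windows and in at least 1 window of 2.59% of the 9252 tested genes with one, and TGACGTCA in 1.85% and 3.9%. Of these 3 genes CHAC1 was called higher in 4SU cells and ATF3 and PPP1R15A were not. CCAAT was found in 6 of the 10 genes (44.1% of tested genes) and TATAAA in 4 (8.11%). The endoplasmic reticulum stress element (ERSE), which begins with CCAAT, was found in none of the 10 and in 0.162% of tested genes. No searched motif lay in the windows of TRIB3 or GTPBP2. A match is a description of these letters, and known elements outside these windows were not searched.

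The nearest relatives of the 10 genes gave 1 call in each direction in 4SU cells, where 3.85% of all genes were called higher and 3.69% lower. Of 12 paralogues tested, 1 was called higher, JDP2, a bZIP repressor related to ATF3 (log2 1.66 ± 0.53, adjusted p = 0.0415), and 1 lower, GTPBP1 (log2 −1.09 ± 0.33, adjusted p = 0.0339). Their median log2 fold change was −0.05, and DESeq2 called none of 11 with an adjusted p. CEBPG, a partner of ATF4, stood at 150 and 121 CPM in untreated and 322 and 219.7 CPM in 4SU libraries but missed the threshold (log2 1.00 ± 0.34, adjusted p = 0.0571). TRIB1 (log2 −0.54), TRIB2 (0.32), CHAC2 (−0.21), SESN3 (−0.05), STC1 (−0.04), PPP1R15B (−0.38), ATF5 (0.29), CEBPA (−0.05) and CEBPD (0.70) were not called. CEBPE was not detected in the 8 replicated libraries. JDP2 was low, at 2.99 and 1.597 CPM in untreated and 9.67 and 5.65 CPM in 4SU libraries.

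Other genes of the ATF4 programme were less uniform. Of 9 amino acid transporters, 3 were called higher and none lower: the glycine transporter SLC6A9 (log2 2.86 ± 0.44, adjusted p = 2.52e-05), the cationic amino acid transporter SLC7A1 (1.43 ± 0.33, adjusted p = 0.00478) and the large neutral amino acid transporter SLC7A5 (1.12 ± 0.35, adjusted p = 0.0406). The median over the transporters was 0.62. Of 17 other regulatory targets, 3 were higher: INHBE, an inhibin subunit (2.83 ± 0.62, adjusted p = 0.00295), DDIT4, a restrainer of mTORC1 (1.72 ± 0.39, adjusted p = 0.00337), and JDP2. Their median was 0.50. Of 15 amino acid synthesis genes, 1 was higher, the alanine transaminase GPT2 (1.27 ± 0.32, adjusted p = 0.00953), with a median of 0.46. None of 12 aminoacyl-tRNA synthetases was called (2 had an unadjusted p under 0.05 in edgeR, both of them lower, and DESeq2 called none). Their median was −0.10. By DESeq2, SLC7A5 (adjusted p = 0.0911) and JDP2 (0.252) were not called, INHBE had no adjusted p, and HSP90B1, a chaperone of the ATF6 and XBP1 list below, was also lower (−1.09, 0.0226). Without 4SU library A, SLC6A9 and EIF2B3 were the genes of these and the following lists still called. That fit called fewer of all genes too. By DESeq2 the counts over all genes were 201 higher and 330 lower of 12764 with an adjusted p.

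Among genes upstream of ATF4 and in neighbouring stress pathways, few were called in 4SU cells. Those called were lower, where 3.69% of all genes were called lower and 3.85% higher. Of 21 genes for the eIF2 kinases, eIF2, its exchange factor eIF2B and their regulators, 1 was called, the eIF2B subunit gene EIF2B3 (log2 −1.78 ± 0.34, adjusted p = 0.000685), and the median was −0.48. Of 18 genes of the ATF6 and XBP1 branches of the unfolded protein response, 2 were lower: MANF (−1.43 ± 0.35, adjusted p = 0.00768) and HSPA5, the chaperone BiP (−1.28 ± 0.36, adjusted p = 0.02). Of 15 immediate-early genes, MYC was lower (−1.20 ± 0.33, adjusted p = 0.0185), and of 19 targets of p53, BTG2 (−1.24 ± 0.36, adjusted p = 0.0227). The medians of these 3 lists were −0.45, −0.19 and 0.05. At an unadjusted p under 0.05 in edgeR the lists held 3, 8, 4 and 7 genes, in the order given. Of these, XBP1 (0.87), SYVN1 (0.75), ZFP36 (0.93), BBC3 (1.14), BAX (0.76) and AEN (0.69) were higher, and the rest were lower.

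When 4SU cells were also crosslinked at 365 nm, 6 of the 10 genes were lower than in 4SU cells without crosslinking and none higher. GTPBP2 fell 8.86-fold, STC2 4.63-fold, SESN2 3.60-fold, ATF3 2.85-fold, CEBPB 2.11-fold and CHAC1 1.93-fold. In this comparison 33.8% of all genes were called lower and 26.1% higher, and the median log2 fold change over all genes was −0.50, and which direction held more genes turned with the scaling. RLE factors gave 4027 genes higher and 3604 lower, and DESeq2 3790 and 2890. None of the 10 was higher at an unadjusted p under 0.05 in edgeR, and none by DESeq2. Scaling to library totals moved the all-gene median to −2.40, with 1019 genes higher and 9965 lower. The comparison shares the 4SU libraries with that of 4SU against untreated cells.

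GTPBP2 stood at 7.86 and 6.99 CPM in the 365 nm libraries (7 and 10 tags) against 64.3 and 66.7 CPM in 4SU alone (log2 −3.15 ± 0.42, adjusted p = 5.37e-08), the widest gap among the 10. STC2 stood at 65.1 and 39.9 CPM (log2 −2.21 ± 0.40, adjusted p = 1.02e-05) and SESN2 at 82.0 and 41.3 CPM (−1.85 ± 0.36, adjusted p = 3.87e-05), both overlapping the untreated libraries. ATF3 stood at 50.5 and 23.1 CPM, below all untreated and 4SU values (−1.51 ± 0.39, adjusted p = 0.00115). CHAC1 stood at 40.4 and 18.9 CPM (−0.95 ± 0.40, adjusted p = 0.0403). CEBPB stood at 22.5 and 9.79 CPM (−1.08 ± 0.48, adjusted p = 0.0483), and its libraries overlapped those of 4SU alone. ATF4 at 386 and 347 CPM (−0.54), TRIB3 at 61.8 and 21.0 CPM (−0.91), PPP1R15A at 38.2 and 24.5 CPM (−0.66) and DDIT3 at 57.3 and 29.4 CPM (0.01) were not called.

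DDIT3, the shortest of the 10 transcripts at 927 nt, was the one whose value turned most on length. With the length trend removed, its log2 fold change went from 0.01 to −1.20 ± 0.35 (adjusted p = 0.00543). STC2, the longest at 5361 nt, moved from −2.21 to −1.31 in the same step. In that fit 7 of the 10 genes were lower, DDIT3 and the 6 above, and 22.2% of all genes were lower and 26.3% higher. Relative to the median of all genes, 9 of the 10 lay below it with TMM, RLE or upper-quartile factors or library totals, and all 10 with the length trend removed. The median distance was −0.49 to −0.56 on the log2 scale under the first 4 and −1.03 under the last. CHAC1 and CEBPB were not called with RLE factors (−0.68 and −0.82, adjusted p 0.143 and 0.141) or by DESeq2 (−0.74 and −0.87, 0.202 and 0.227). Without 365 nm library B or without 4SU library A, SESN2, STC2 and GTPBP2 stayed called. Without the first, ATF3, CHAC1 and CEBPB had values of −1.02, −0.46 and −0.54, and without the second −0.85, −1.001 and −0.21, and lost the call. Both fits left 1 library in a group and also called fewer of all genes lower. CHAC1 also missed the threshold without 4SU library B (−0.89) or 254 nm library A (−0.88), as did CEBPB without the latter (−1.01). TRIB3 joined the calls without 365 nm library A (−1.82), without 4SU library B (−1.53) or without untreated library A or B (−0.92 in each).

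**Figure D2:**
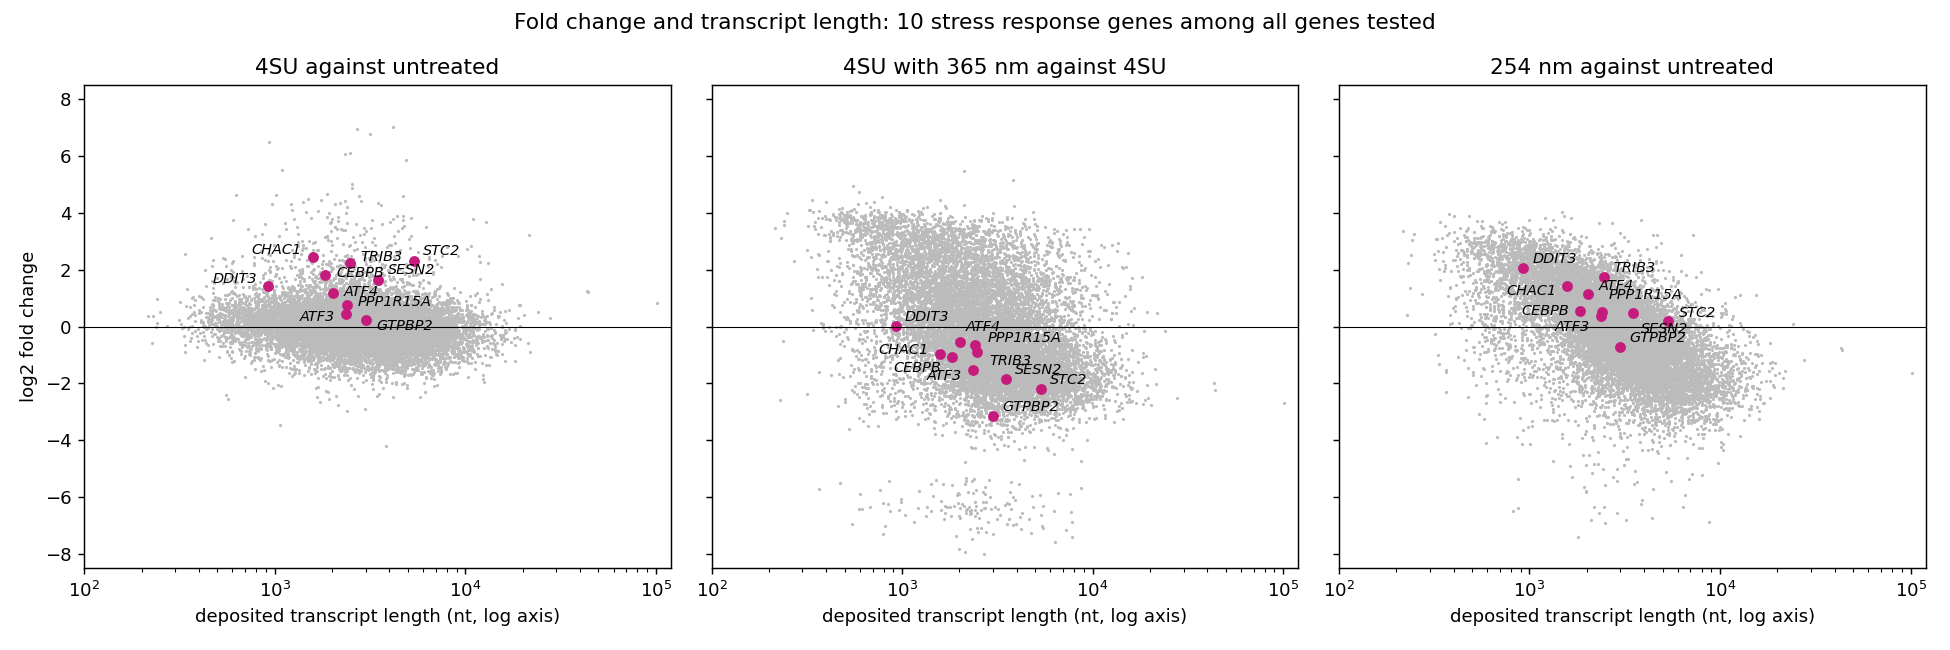
Log2 fold change (y axis) against deposited transcript length (x axis, nt, log scale) for all 13731 genes tested (grey) and the 10 stress response genes (magenta), in 3 comparisons. In 4SU against untreated cells the 10 genes lie from 0.25 to 2.44 at every length, whereas in both comparisons with crosslinked libraries the whole cloud slopes downward with length and DDIT3 (927 nt) and STC2 (5361 nt) lie at its short and long sides.

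Crosslinking at 254 nm without 4SU was accompanied by higher levels of 4 of the 10 genes, DDIT3, TRIB3, CHAC1 and ATF4, and by lower levels of none. Here 25.2% of all genes were called higher and 28% lower, and the all-gene median was −0.14. With library totals the median was −0.998, 1384 genes were higher and 6462 lower, and of the 10 genes DDIT3 stayed higher and GTPBP2 became lower (−1.56). DESeq2 called none of the 10 lower. DDIT3 stood at 53.6 and 77.6 CPM (4.16-fold above untreated cells, log2 2.06 ± 0.38, adjusted p = 1.94e-05). TRIB3 stood at 53.6 and 51.8 CPM (3.34-fold, log2 1.74 ± 0.44, adjusted p = 0.001), CHAC1 at 35.0 and 20.5 CPM (2.72-fold, log2 1.44 ± 0.41, adjusted p = 0.00292) and ATF4 at 439 and 604 CPM (2.24-fold, log2 1.16 ± 0.37, adjusted p = 0.00734). Each of these 4 lay above both untreated libraries in both 254 nm libraries, as did SESN2 and PPP1R15A, which were not called. The share of all genes without overlap was not counted for this comparison. The untreated libraries also enter the comparison of 4SU with untreated cells.

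The other 6 genes were not called at 254 nm. ATF3 stood at 111 and 81.6 CPM (log2 0.36), SESN2 at 98.1 and 96.2 CPM (0.49) and PPP1R15A at 38.6 and 42.5 CPM (0.51). STC2 stood at 75.4 and 35.2 CPM (0.21), CEBPB at 14.99 and 12.2 CPM (0.55) and GTPBP2 at 37.7 and 29.3 CPM (−0.72, adjusted p = 0.0642). GTPBP2 was the one gene of the 10 with a negative value, and both its 254 nm libraries lay below both untreated ones (unadjusted p = 0.0357 in edgeR).

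Which genes were called at 254 nm changed when the length trend was removed. TRIB3 stayed higher (log2 1.69 ± 0.44, adjusted p = 0.00367), and SESN2 (1.02 ± 0.32, adjusted p = 0.0134) and STC2 (1.24 ± 0.38, adjusted p = 0.0118) became called. ATF4 (0.75, adjusted p = 0.0528), DDIT3 (0.72, 0.097) and CHAC1 (0.69, 0.155) lost the call. The fit called 20.4% of all genes higher and 16.3% lower. TRIB3 was thus called with and without the trend, although not by DESeq2 (1.76, adjusted p = 0.0891) or with library totals (0.88, 0.0634). ATF4 missed the threshold without 254 nm library B (0.91, adjusted p = 0.108) or untreated library A (1.00, 0.0578), and CHAC1 without 254 nm library A (1.06, 0.076). Without untreated library A, CEBPB (1.27, adjusted p = 0.0369) and STC2 (0.94, 0.0495) were called.

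**Figure D3:**
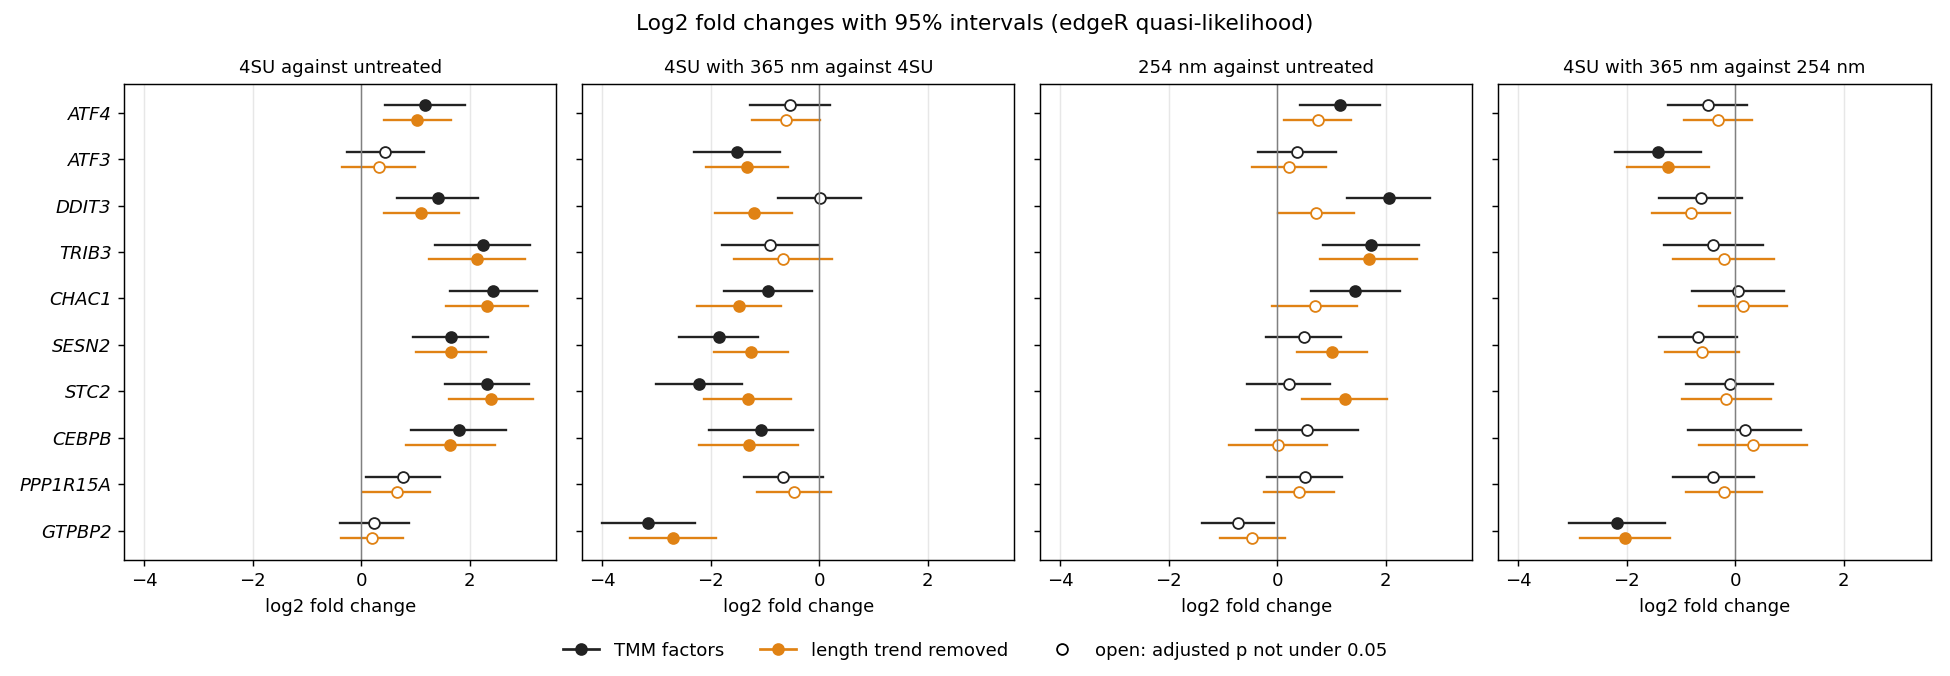
Log2 fold changes (x axis) with 95% intervals for the 10 genes in 4 comparisons, as fitted with TMM factors (black) and with the length trend removed (orange); filled points have an adjusted p under 0.05. The 7 filled black points of 4SU against untreated stay filled in orange, while at 254 nm ATF4, DDIT3 and CHAC1 change from filled to open and SESN2 and STC2 from open to filled.

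Set against each other, the 2 crosslinking procedures differed in 2 of the 10 genes. In 4SU with 365 nm against 254 nm, ATF3 (log2 −1.43 ± 0.39, adjusted p = 0.00542) and GTPBP2 (−2.18 ± 0.44, adjusted p = 0.0002) were lower and no gene was higher, beside 12.5% of all genes lower and 15.2% higher. None of the 10 was higher at an unadjusted p under 0.05 in edgeR or by DESeq2. The split over all genes was 2499 higher and 1219 lower with RLE factors, 2196 and 975 by DESeq2, and 631 and 5885 with library totals (median −1.08). Every 365 nm library lay below every 254 nm library for ATF3 and GTPBP2, and also for ATF4, SESN2 and PPP1R15A, which were not called. The share of all genes without overlap was not counted here either. For the other 8 genes the values ran from −0.68 (SESN2, 95% interval −1.41 to 0.04) to 0.18 (CEBPB, −0.86 to 1.21), and these intervals are too wide to show that levels were alike. With the length trend removed the same 2 genes were lower, beside 12.9% of all genes lower and 16.1% higher. ATF3 missed the threshold without 365 nm library B (−0.94, adjusted p = 0.221) or 254 nm library A (−1.20, adjusted p = 0.0628).

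The 4SU difference was therefore tested for whether it was the same with and without crosslinking. The contrast subtracts 4SU against untreated from 4SU with 365 nm against 254 nm, and so also holds the change of wavelength. For 8 of the 10 genes the difference was smaller, or more negative, in the crosslinked libraries. TRIB3 gave −2.64 ± 0.62 on the log2 scale (adjusted p = 0.00232), GTPBP2 −2.43 ± 0.55 (0.0014), STC2 −2.42 ± 0.54 (0.0014), CHAC1 −2.39 ± 0.57 (0.00282) and SESN2 −2.34 ± 0.50 (0.00074). DDIT3 gave −2.04 ± 0.53 (0.00571), ATF3 −1.87 ± 0.53 (0.0112) and ATF4 −1.70 ± 0.52 (0.0184). CEBPB (−1.62, adjusted p = 0.0861) and PPP1R15A (−1.17, 0.0973) had the same sign and missed the threshold.

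Of all genes, 7.09% were called lower and 9.99% higher in this contrast, with a median of −0.15, against a median of −2.19 over the 10 genes. The split was 1673 higher and 607 lower with RLE factors, 1539 and 440 by DESeq2, and 494 and 4459 with library totals (median −1.18). With the length trend removed the same number, 8, were lower, beside 7.08% of all genes lower and 12.5% higher, and the median of the 10 was −2.05. All 10 lay below the all-gene median under TMM, RLE and upper-quartile factors, library totals and the length trend. The contrast reuses the 4SU and untreated libraries. In 4SU against untreated all 10 lay above the all-gene median (median distance 1.51 with TMM), so part of the negative sign follows from the subtraction. In CHAC1 the parts of the contrast were 2.44 without and 0.05 with crosslinking, and in GTPBP2 0.25 and −2.18. DESeq2 did not call TRIB3 (−2.44, adjusted p = 0.162). Without 365 nm library B, TRIB3, CHAC1, DDIT3, ATF3 and ATF4 gave −2.02, −1.90, −1.61, −1.38 and −1.62. Without 4SU library A, TRIB3, DDIT3, ATF3 and ATF4 gave −1.56, −1.50, −1.20 and −1.58. These genes lost the call in those fits, while SESN2, STC2 and GTPBP2 kept it. Each of the 2 fits left 1 library in a group and also called fewer of all genes lower. ATF4 also missed the threshold without 365 nm library A (−1.75) or 254 nm library B (−1.44) and ATF3 without 254 nm library A (−1.625). CEBPB was called without 4SU library B (−2.17) or untreated library A (−2.36), and PPP1R15A without untreated library B (−1.43).

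**Figure D4:**
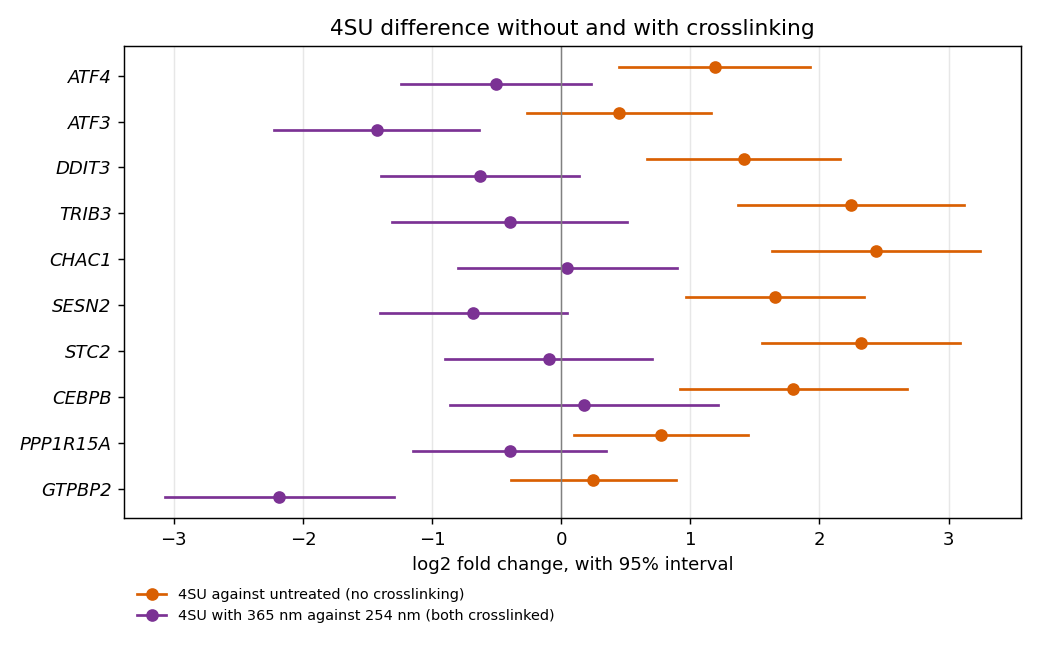
Log2 fold change of 4SU against untreated without crosslinking (orange) and of 4SU with 365 nm against 254 nm, both crosslinked (purple), with 95% intervals, for the 10 genes. All 10 orange points lie to the right of the purple point of the same gene, with the widest gap in TRIB3 (2.24 against −0.40) and the narrowest in PPP1R15A (0.77 against −0.40).

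In the siRNA pair all 10 genes were higher in the HuR library than in the GFP library, from 1.36-fold to 5.04-fold. There is 1 library per siRNA, so no test was made, and the intervals below cover counting error only. ELAVL1, the targeted gene, had 1905 tags in the GFP and 638 in the HuR library (log2 −1.55), lower as labelled. The median log2 ratio was 0.89 over the 10 genes and −0.02 over the 17798 genes with at least 10 tags in the pair. A log2 ratio above 0 was found for 8740 of those 17798 genes. Of the 10, 3 were above 2-fold and none below, against 4.17% of those genes above and 6.58% below.

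CHAC1 differed most, with 55 tags in the GFP and 281 in the HuR library (3.72 and 19.3 CPM, log2 ratio 2.33, 95% interval 1.95 to 2.82). It ranked 6 of 17798 from the highest ratio. SESN2 went from 30.5 to 80.0 CPM (1.39, 1.23 to 1.55) and PPP1R15A from 33.2 to 71.6 CPM (1.10, 0.95 to 1.27). DDIT3 went from 21.8 to 42.0 CPM (0.94), CEBPB from 10.5 to 20.01 CPM (0.92), STC2 from 72.5 to 132 CPM (0.86), TRIB3 from 18.8 to 34.1 CPM (0.85), ATF4 from 212.5 to 354 CPM (0.73), ATF3 from 31.8 to 48.1 CPM (0.60) and GTPBP2 from 64.5 to 87.9 CPM (0.45). None of the 10 intervals reached 0. Neither did those of the paralogues TRIB1, TRIB2, CHAC2, CEBPG and PPP1R15B, which lay below 0, or of JDP2, CEBPA and GTPBP1, above it. The share of all genes with such an interval was not counted. In the GFP library CHAC1, ATF3 and SESN2 lay below both untreated libraries, so their ratios start from a low GFP value. The untreated values were 13.9 and 6.12, 84.7 and 65.2, and 78.9 and 59.4 CPM, in that order. ATF3 in the HuR library also lay below both untreated libraries. DDIT3, STC2 and GTPBP2 in the GFP library lay above both untreated libraries, and the remaining genes lay between them. The cause of these differences was not tested.

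The paralogues had a median log2 ratio of −0.11 over 12 genes, 1 of them above 2-fold: JDP2, with 46 and 124 tags (log2 1.41, 0.95 to 1.97). Of the 9 amino acid transporters 3 were above 2-fold (median 0.73), of 19 other regulatory targets 5 (median 0.12), and of 12 aminoacyl-tRNA synthetases none (median 0.04). Of 15 amino acid synthesis genes 1 was above 2-fold (median 0.27), of 19 p53 targets 2 (median −0.07) and of 19 immediate-early genes 1 (median 0.05). Of 21 genes of the eIF2 list none was (median −0.13). More than 2-fold lower were 1 of the other regulatory targets and 1 of the eIF2 list. The 18 genes of the ATF6 and XBP1 branches had a median of 0.16 with 1 above 2-fold.

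**Figure D5:**
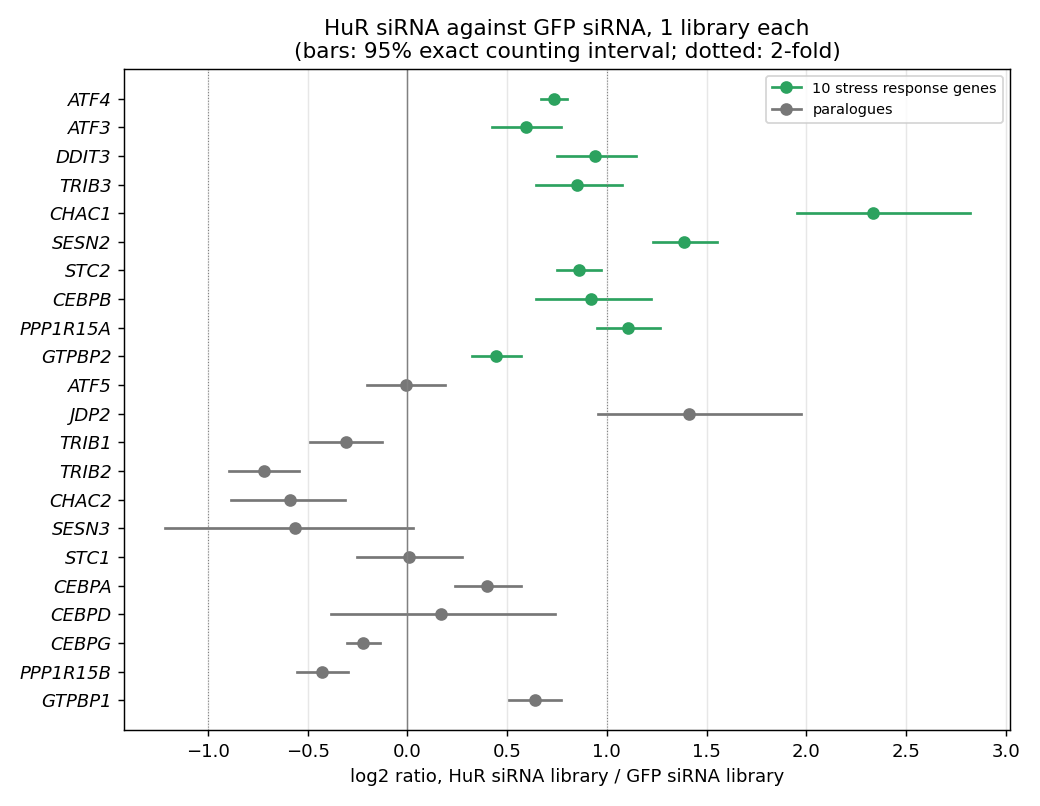
Log2 ratio of the HuR siRNA to the GFP siRNA library (x axis) for the 10 stress response genes (green) and 12 paralogues (grey); bars are 95% exact counting intervals and dotted lines mark 2-fold. All green points lie right of 0, from 0.45 (GTPBP2) to 2.33 (CHAC1), and of the paralogues JDP2 at 1.41 lies above 2-fold.

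Over the 8 replicated libraries the 10 genes did not vary as a single group. Pearson correlations of log2 CPM reached 0.91 for TRIB3 with CEBPB, 0.89 for SESN2 with STC2 and 0.87 for ATF4 with DDIT3. GTPBP2 had −0.28 with DDIT3, −0.02 with TRIB3 and 0.01 with ATF4, but 0.76 with ATF3 and 0.61 with SESN2. ATF3 had 0.28 with ATF4, 0.24 with DDIT3 and 0.25 with CHAC1. These are descriptions over 8 libraries that share treatment groups and RNA length. Among tested genes outside the 10 whose mean level was above the median of tested genes, those most like ATF4 were NAA60 (r = 0.94), the unnamed transcript AF093543 (0.94) and AK025813 (0.92). DDIT3 was most like MED8 (0.98), SRPRB (0.95) and ARHGEF39 (0.95), and TRIB3 most like AF317678 (0.96), NM_001012661 (0.96) and RASSF1 (0.93).

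Uridine is the base that 4SU replaces. For 8 of the 10 genes a GENCODE transcript of matching length was found (within 10%), with 16.2% (CEBPB) to 23.5% (STC2) uridine. The median over 7912 tested genes with a matched transcript was 24.3%, with quartiles of 20.4% and 27.9%, so all 8 lay below the median. The pentamer AUUUA, found in the AU-rich elements that HuR is known to bind, occurred in the 3′ untranslated region of 5 of the 8 and in 69.2% of 7897 genes. STC2 had 13 copies, and ATF4, TRIB3 and SESN2 had none. Strand was not given for the counting, and by GENCODE the exons of DDIT3 share 62 bases with MARS1 on the opposite strand and 105 with AC022506.1 on its own strand, and those of CEBPB 231 bases with CEBPB-AS1 on the opposite strand, so reads there cannot be assigned to either gene.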

How the data were processed

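The submitters' tables list, for each of 10 libraries, transcripts with expected counts of tags and a transcript length, per the file headers. The deposited expected counts are not normalised, are fractional where tags matched several transcripts, and hold only values above 0. The length column, deposited by the authors, is in nucleotides, and the third value per transcript was not used. The aligner, build, annotation and use of strand are not stated in these sources. Of 25005 transcripts, 15886 were named from a RefSeq table and 134 from GENCODE v29, and 8985 kept their accession. Counts were summed by gene (10 genes had more than 1 transcript) and rounded.

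The 8 replicated libraries were fitted together in edgeR 4.0.16 (R 4.3.3; quasi-likelihood, group means, TMM factors, filterByExpr, 13731 genes, 4 residual and 40 prior degrees of freedom, common biological coefficient of variation 0.244), two-sided, with Benjamini-Hochberg adjustment over all genes tested and calls at an adjusted p under 0.05. The standard error (SE) is the size of the log2 fold change over the square root of F. CPM are counts per 1000000 of the TMM-scaled library total. The siRNA ratio used a prior count of 2 and no test. The length trend was a loess curve (span 0.5) of centred log2 CPM on log2 length in each library, used as an offset. The fits with and without this offset were run on simulated data that had a length trend in the 4SU libraries alone. In the real data the crosslinked libraries held the shorter transcripts, so the simulation cannot show how the offset performs there.

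The 10 genes, the pathway lists and the motifs were chosen with earlier results of these data known. The text names all 10 genes and every detected paralogue, from other lists up to 4 called genes in each direction for 4SU against untreated, and the 3 genes most correlated with ATF4, DDIT3 and TRIB3. Alternatives were DESeq2 1.42.0, other factors and filters, only the groups compared, a block for the letters A and B, the length trend, unsummed transcripts, a threshold of 0.01 and leaving out each library. For the siRNA pair they were a prior count of 0.5 and library totals.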

Additional observations from a re-analysis of the deposited data

Results flagged for a closer look

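For 8 of the 10 genes the 4SU difference in crosslinked libraries (4SU with 365 nm against 254 nm) differed from that in libraries without crosslinking (4SU against untreated) by the test of the difference itself, in edgeR's quasi-likelihood test adjusted over all genes. On the log2 scale the crosslinked minus the uncrosslinked difference was −2.64 for TRIB3, −2.43 for GTPBP2, −2.42 for STC2, −2.39 for CHAC1 and −2.34 for SESN2. It was −2.04 for DDIT3, −1.87 for ATF3 and −1.70 for ATF4. The contrast also holds the change from 254 nm to 365 nm light, which cannot be told apart from the presence of crosslinking. It reuses the libraries of 4SU against untreated and subtracts their difference, so it is not independent of the rise there. In GTPBP2 and ATF3 the uncrosslinked difference was not called and the crosslinked one was lower, whereas in the other 6 the uncrosslinked difference was higher and the crosslinked one was not called.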

How the results depend on the processing

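The lowest counts were in crosslinked libraries, where GTPBP2 had 7 and 10 tags in 4SU with 365 nm and CEBPB 14 to 33, although total tags there overlapped those of the other libraries. Counts of the 10 genes called were within 1.5 times the main count except as follows. With library totals, 10 were lower in 4SU with 365 nm against 4SU and 9 against 254 nm, while at 254 nm against untreated 1 was higher and 1 lower; upper-quartile factors also gave 1 lower there. Leaving out 1 library at a time gave 3 to 7 higher in 4SU against untreated, 3 to 7 lower in 4SU with 365 nm against 4SU, 1 to 2 lower against 254 nm and 3 to 9 lower in the difference between the 4SU differences. DESeq2 called 5 genes higher in 4SU against untreated, without DDIT3 (adjusted p = 0.0502) and TRIB3 (0.133). In the siRNA pair, library totals gave ATF4 a log2 ratio of 0.658, just below its counting interval of 0.67 to 0.799.

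Signs turned for these values, none of which was called as reported. In 4SU against untreated, ATF3 ranged from −0.24 to 0.90 over left-out libraries. In 4SU with 365 nm against 4SU, DDIT3 was −0.10 with upper-quartile factors, −1.93 with library totals, −0.059 with no filter and −1.20 with the length trend removed, and ranged from −0.50 to 0.55 over left-out libraries, as TRIB3 did from −1.82 to 0.17. At 254 nm, library totals gave ATF3 −0.48, SESN2 −0.37, STC2 −0.61, CEBPB −0.31 and PPP1R15A −0.35, and STC2 ranged from −0.39 to 0.94 over left-out libraries. In 4SU with 365 nm against 254 nm, library totals gave CHAC1 −1.05 and CEBPB −0.88, and DESeq2 and RLE factors gave STC2 0.071 and 0.11. Over left-out libraries the ranges there were −1.32 to 0.22 for TRIB3, −0.55 to 0.53 for CHAC1, −0.55 to 0.55 for STC2 and −0.47 to 0.71 for CEBPB. The causes of these turns were not tested. With the letters A and B as a replicate block, 7, 7, 4, 2 and 9 genes were called in the 5 comparisons, with TRIB3 (4SU with 365 nm against 4SU, adjusted p = 0.0278) and CEBPB (the difference, 0.027) joining. Over all genes the block gave 862 higher and 831 lower in 4SU against untreated, in place of 528 and 507. The labels do not say that the letters pair the libraries, and correlations between the groups' deviations were −0.09 to 0.35. Library A exceeded library B in all 4 groups for ATF3, TRIB3, SESN2, STC2 and CEBPB.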
